A study of Rattus norvegicus with 27 samples.

Results

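The genes of oxidative phosphorylation were followed in motor neurons of the rat tail below a spinal cord transection. They were taken by symbol from the platform annotation: genes starting with Nduf, Uqcr or Atp5, genes starting with Cox4 to Cox8, and Sdha, Sdhb, Sdhc and Sdhd. Only probe sets with a single gene symbol were used, and the probe set with the highest mean signal stood for its gene. This gave 73 genes of 9769 on the array, read by 77 probe sets, of which 4 genes had more than 1. A further 6 probe sets carried such a symbol beside another and were left out. The 73 genes were 6 core subunits, 25 accessory subunits and 5 assembly factors of complex I, 4 subunits of complex II, 5 of complex III, 13 of complex IV and 13 members of complex V, with Ndufa4 kept apart and 1 pseudogene, Cox6c-ps1. The subunits encoded by mitochondrial DNA do not fall under the rule.

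The transected group at 21 days, Spi-21, had 8 arrays and was set against ShamC-21, with 6 arrays. The transected group at 60 days, Spi-60, had 8 arrays and was set against ShamC-60, with 5 arrays. All rats were adult male Wistar rats of no stated genotype or age, and all had received Fluorogold, a tracer carried back to the cell bodies, 5 to 7 days before the cords were frozen. Transection was made at S2 with a short piece of cord removed, and sham rats had the vertebrae opened over an intact dura. Labelled neurons were cut by laser from the sacral cord, pooled at 100 to 200 per sample by the sample labels or 50 to 200 by the design text, and their RNA was amplified in 2 rounds before hybridisation. The labels number the samples as biological replicates without tying them to animals or batches, so the tests rest on the spread from sample to sample, whatever its source.

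Oxidative phosphorylation is the last stage of respiration in the inner mitochondrial membrane. Complexes I and II pass electrons from NADH and succinate to ubiquinone, complex III passes them to cytochrome c, complex IV passes them to oxygen, and complex V makes ATP from the proton gradient that complexes I, III and IV build. Motor neurons are large cells with long axons and high demand for ATP, and the nuclear genes of the complexes are known targets of transcription factors such as NRF1, GABPA and YY1.

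The windows before the gene starts are shown for 4 genes that carry the main contrasts below: Uqcrc1 and Uqcrc2, the core proteins of complex III whose differences had opposite signs, and Cox4i1 and Cox8a, subunits of complex IV that moved together from array to array. Each window runs 5′ to 3′ on the gene's strand from 250 bases before to 50 bases after the RefSeq start in the GRCr8 build: Uqcrc1 at chr8:118467973-118468272 (plus strand), Uqcrc2 at chr1:184598990-184599289 (plus strand), Cox4i1 at chr19:65630133-65630432 (plus strand) and Cox8a at chr1:213833574-213833873 (minus strand). Capitals mark the letters GCGCATGC (NRF1 core), CCGGAAG (GABPA core) or AAGATGGC (YY1 core), or their reverse complements.
Uqcrc1: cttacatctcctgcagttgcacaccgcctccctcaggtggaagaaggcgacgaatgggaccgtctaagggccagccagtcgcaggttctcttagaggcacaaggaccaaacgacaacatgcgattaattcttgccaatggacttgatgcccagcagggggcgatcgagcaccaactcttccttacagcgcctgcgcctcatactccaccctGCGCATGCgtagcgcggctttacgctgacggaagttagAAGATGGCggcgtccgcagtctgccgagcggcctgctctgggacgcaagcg
Uqcrc2: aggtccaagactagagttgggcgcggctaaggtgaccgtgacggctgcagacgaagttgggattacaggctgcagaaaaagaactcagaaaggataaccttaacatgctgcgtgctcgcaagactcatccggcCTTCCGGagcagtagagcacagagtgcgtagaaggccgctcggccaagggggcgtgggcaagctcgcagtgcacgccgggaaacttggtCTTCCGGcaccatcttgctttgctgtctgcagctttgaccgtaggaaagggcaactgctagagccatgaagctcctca
Cox4i1: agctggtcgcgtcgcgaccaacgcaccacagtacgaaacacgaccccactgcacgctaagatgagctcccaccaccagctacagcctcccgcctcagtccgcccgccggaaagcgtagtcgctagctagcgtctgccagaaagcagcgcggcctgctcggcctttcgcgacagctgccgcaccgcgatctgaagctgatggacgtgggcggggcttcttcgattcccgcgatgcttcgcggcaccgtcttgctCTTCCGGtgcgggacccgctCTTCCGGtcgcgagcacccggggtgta
Cox8a: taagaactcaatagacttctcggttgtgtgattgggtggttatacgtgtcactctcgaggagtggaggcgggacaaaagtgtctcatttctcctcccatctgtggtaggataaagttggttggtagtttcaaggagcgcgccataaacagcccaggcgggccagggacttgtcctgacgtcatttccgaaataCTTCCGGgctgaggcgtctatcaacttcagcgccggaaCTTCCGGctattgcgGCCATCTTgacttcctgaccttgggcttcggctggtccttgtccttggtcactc
The Uqcrc1 window held the NRF1 and YY1 letters, the Uqcrc2 and Cox4i1 windows each held the GABPA letters at 2 places, and the Cox8a window held the GABPA letters at 2 places and the YY1 letters once. RefSeq windows were found for 66 of the 73 genes, and none was in the table for Ndufa8, Ndufb9, Cox6a1, Cox6c, Cox4i2, Cox6c-ps1 and Atp5pd. Both strands were searched. The NRF1 letters on one strand can overlap those on the other, and no other pair of these motifs shared bases in the 4 windows shown. The NRF1 letters were in 7 of 66 windows (10.6%), against 2.66% of 27457 promoters in the table and 4.57% of 8052 promoters of genes on the array. The GABPA letters were in 20 windows (30.3%), against 9.22% and 15.8%, and the YY1 letters were in 14 windows (21.2%), against 3.44% and 4.84%. At least 1 of the 3 was in 32 windows (48.5%), against 14.1% of all promoters and 22.7% of those of genes on the array. By outcome, at least 1 was in 7 of 15 genes higher after transection on either day, 9 of 12 genes lower on either day, and 16 of 39 genes past the threshold on neither day. A match describes the letters in the window only.

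The RNA controls and some arrays stood apart, which touches several results. The beta-actin 3′ minus 5′ control difference, which grows as transcripts lose their 5′ ends, was 2.86 to 3.60 (log2) in Spi-21 arrays and 1.97 to 2.65 in ShamC-21 arrays, and 2.75 to 3.77 in Spi-60 arrays and 1.92 to 2.42 in ShamC-60 arrays, so the groups did not overlap on either day. The GAPDH control was 2.57 to 3.47 in Spi-21 arrays 1 to 4 and 0.985 to 1.46 in Spi-21 arrays 5 to 8, against 2.65 to 3.26 in ShamC-21 arrays. At 60 days it was 2.85 to 3.85 in Spi-60 arrays and 2.31 to 2.92 in ShamC-60 arrays, with the ranges overlapping only slightly. The mean of 10 measured motor neuron markers was 10.22 to 10.51 in Spi-21, 10.33 to 10.52 in ShamC-21 and 10.35 to 10.55 in Spi-60 arrays, but 9.05 in ShamC-60 array 4 against 10.24 to 10.44 in the other ShamC-60 arrays. Of the glial lists, 3 of 9 measured astrocyte markers, 2 of 9 oligodendrocyte markers and 2 of 9 microglial markers were higher at 21 days, and 1 of 9 in each list at 60 days. The astrocyte marker mean was 9.77 in ShamC-60 array 1 and 9.48 in array 4, against 8.54 to 8.83 in ShamC-60 arrays 2, 3 and 5. In Spi-60 arrays it was 8.82 to 9.67. The oligodendrocyte marker mean was 8.75 in ShamC-60 array 1 and 7.44 to 7.83 in the other ShamC-60 arrays. Of the 10 motor neuron markers, 2 were higher at 21 days (Isl2, Chrna4) and 4 at 60 days (Slc18a3, Prph, Nefh, Chrna4). In these lists 0 markers were lower on either day. Over all probe sets, 11.3% were higher at 21 days and 10.2% at 60 days, and 11.2% and 8.92% were lower. In RNA of pooled neurons, fewer cells of a type and less RNA per cell cannot be told apart.

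Most oxidative phosphorylation genes did not pass the threshold after transection, and those that did went both ways. At 21 days 8 of 73 genes were higher and 8 were lower in transected rats at an adjusted p under 0.05 in limma's moderated test, where 11.3% of all 12913 probe sets were higher and 11.2% lower, so neither share of the genes stood above that of the array. At 60 days 15 were higher (20.5%) and 8 lower, where 10.2% of all probe sets were higher and 8.92% lower. Of the 73 genes 66 lay above the median signal, with 15 of the calls at 21 days and 22 at 60 days. In a fit of the 6456 probe sets above that median, 1811 passed at 21 days and 2079 at 60 days in either direction. Brighter probe sets thus passed more often than the array as a whole. The shares of all probe sets are therefore not a like background for these genes. The median log2 difference over the 73 genes was -0.02 at 21 days and 0.00 at 60 days, against 0.01 and 0.02 over all probe sets. At both days 7 genes were higher and 4 lower (5.05% and 5.14% of all probe sets), 45 passed at neither day and 0 passed in opposite directions. For the mean of both days 17 were higher and 15 lower, where 20.4% and 19% of all probe sets were.

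The largest differences among the higher genes at 21 days were those of Uqcrc1, Ndufv3, Atp5f1d and Cox6a1, and at 60 days those of Uqcrc1, Cox6a1, Atp5f1d, Cox4i1 and Cox8a. Among the lower genes, Ndufaf4, an assembly factor of complex I, had the largest difference on both days, followed by Atp5pf at 21 days and by Ndufaf5 at 60 days. With the beta-actin control difference as a covariate, an alternative chosen after the data were seen, 1 gene was higher and 0 lower at 21 days and 2 were higher and 0 lower at 60 days, and 463 of all probe sets passed at 21 days and 162 at 60 days in either direction. Those calls were Uqcrc1 at both days (log2 difference 1.42, adjusted p = 0.0269 in limma, and 1.72, adjusted p = 0.027) and Cox6a1 at 60 days (1.29, adjusted p = 0.008). The differences of the genes that lost the call stayed within 1.5 times of those without the covariate for 15 of 15 at 21 days and 19 of 21 at 60 days (not Ndufa1 and Cox8b, which grew), such as Cox8a at 0.74 and Atp5f1d at 1.00 at 60 days. Because the control did not overlap between transected and sham arrays, its part and that of transection cannot be told apart.

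Groups of arrays that stood apart also decided calls. Without ShamC-60 arrays 1 and 4, 14 of 23 calls at 60 days were lost, and 9 were kept: Ndufa2, Ndufaf5, Uqcrc1, Cox4i1, Cox6a1, Cox7c, Cox8a, Atp5mc3 and Atp5mf. Over all probe sets, 797 then passed at 60 days in either direction, where the fit of all arrays had 1311 higher and 1152 lower. With Spi-21 arrays 5 to 8 alone, 11 of 16 calls at 21 days were lost, and 5 were kept: Ndufb2, Ndufv3, Uqcrc1, Uqcrq and Cox6a1. Over all probe sets, 1335 then passed at 21 days in either direction, where the fit of all arrays had 1465 higher and 1452 lower. With the GAPDH control difference as a covariate, 1 of 16 calls was lost at 21 days and 13 of 23 at 60 days. Those lost at 60 days were Ndufs7, Ndufv1, Ndufa1, Ndufa2, Ndufb2, Ndufb5, Ndufb7, Ndufaf4, Ndufa4, Uqcrq, Cox7c, Cox6a2 and Atp5mf. Ndufa2, Cox7c and Atp5mf were among the 9 kept without ShamC-60 arrays 1 and 4. Over all probe sets, 3957 passed with that covariate at 21 days and 869 at 60 days. A lost call was not always a lost difference. Without ShamC-60 arrays 1 and 4, 9 of the 14 lost calls kept a difference within 1.5 times of the main one. So did 7 of 11 with Spi-21 arrays 5 to 8 alone, and 9 of 13 at 60 days with the GAPDH covariate. Leaving out arrays also lowers the precision of a fit.

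**Figure D1:**
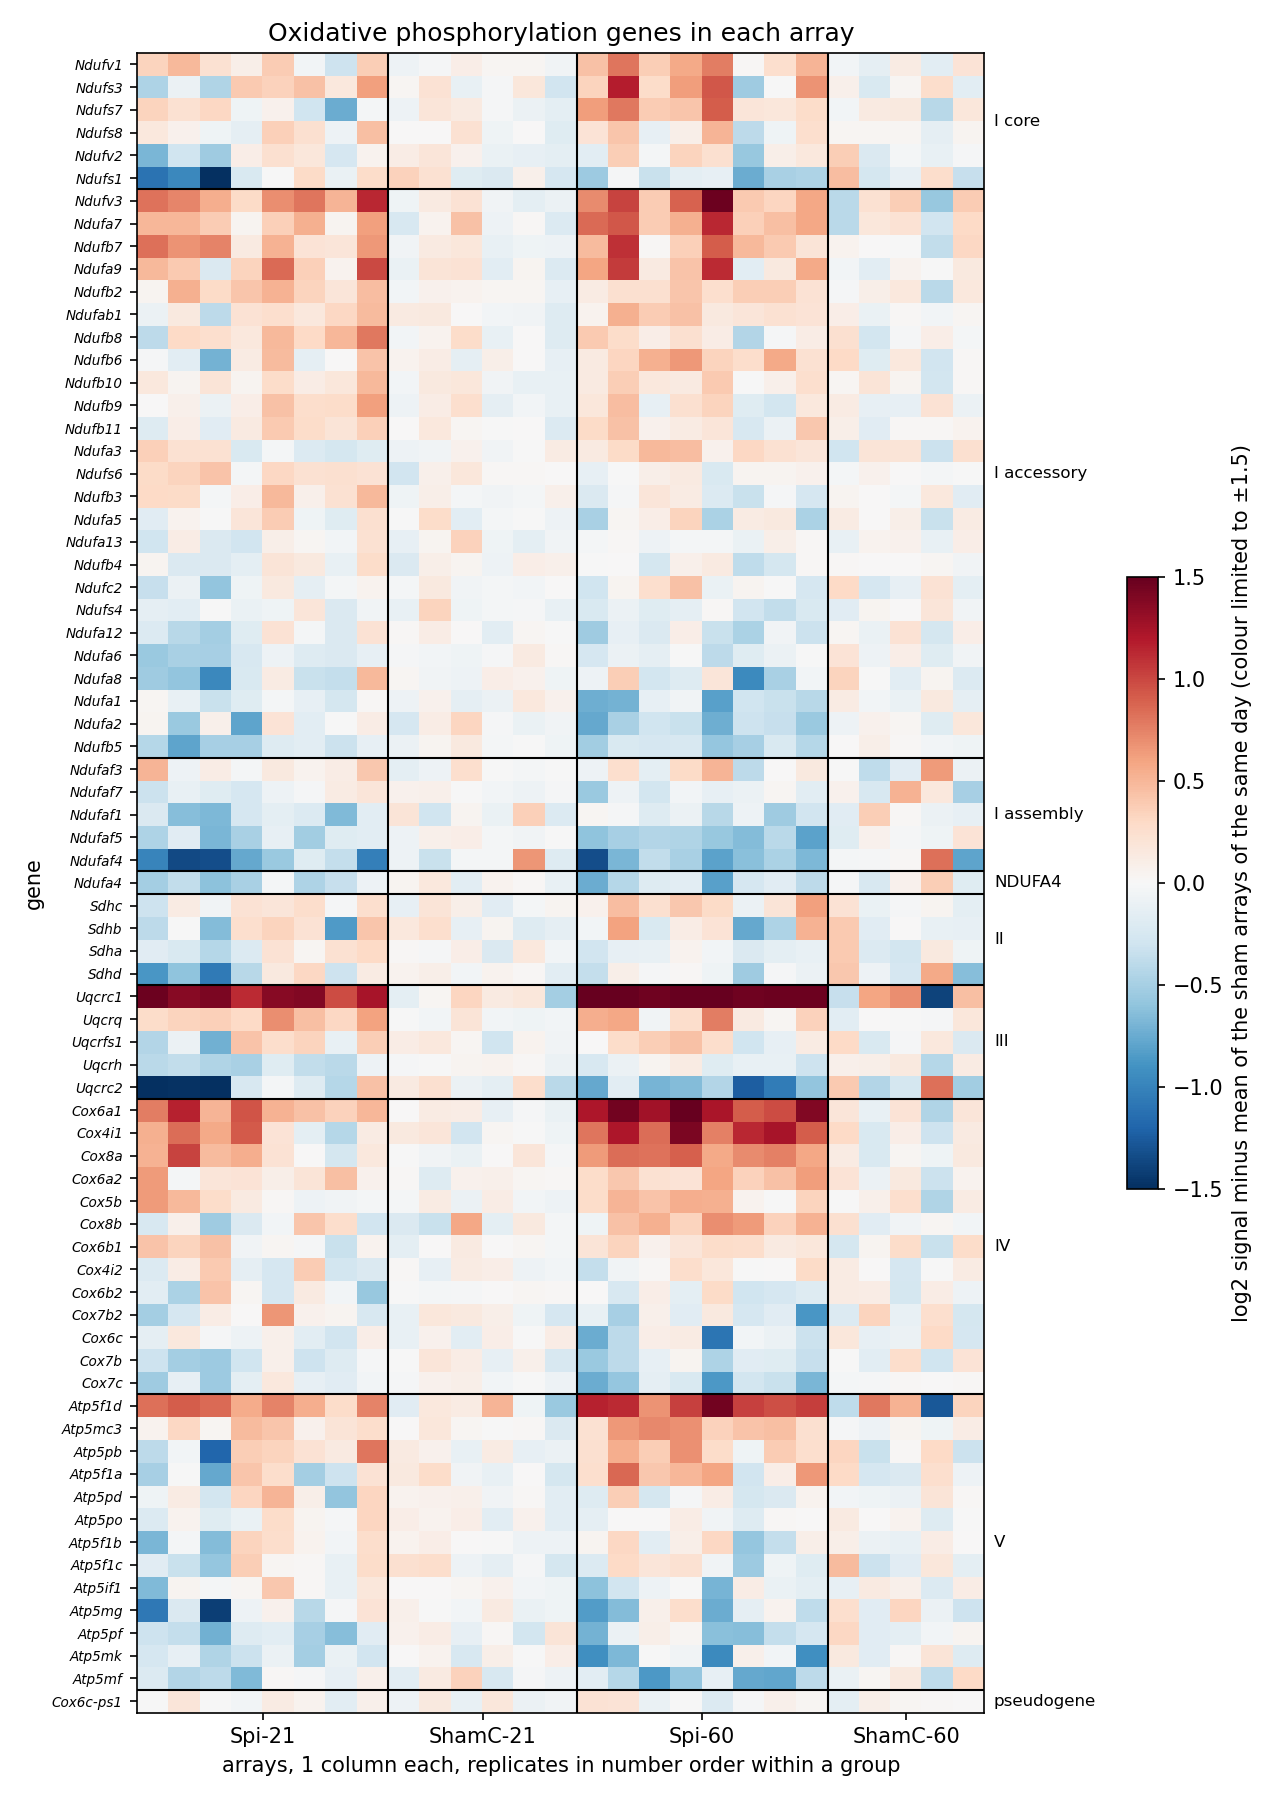
Log2 signal of each of the 73 genes (rows, grouped by complex) in each of the 27 arrays (columns, by group), minus the mean of the sham arrays of the same day, with colours limited to ±1.5. Uqcrc1, Cox6a1 and Atp5f1d are red in both transected groups, Ndufaf4 and Ndufaf5 are blue, and most genes (45 of 73) passed the threshold at neither day.

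**Figure D2:**
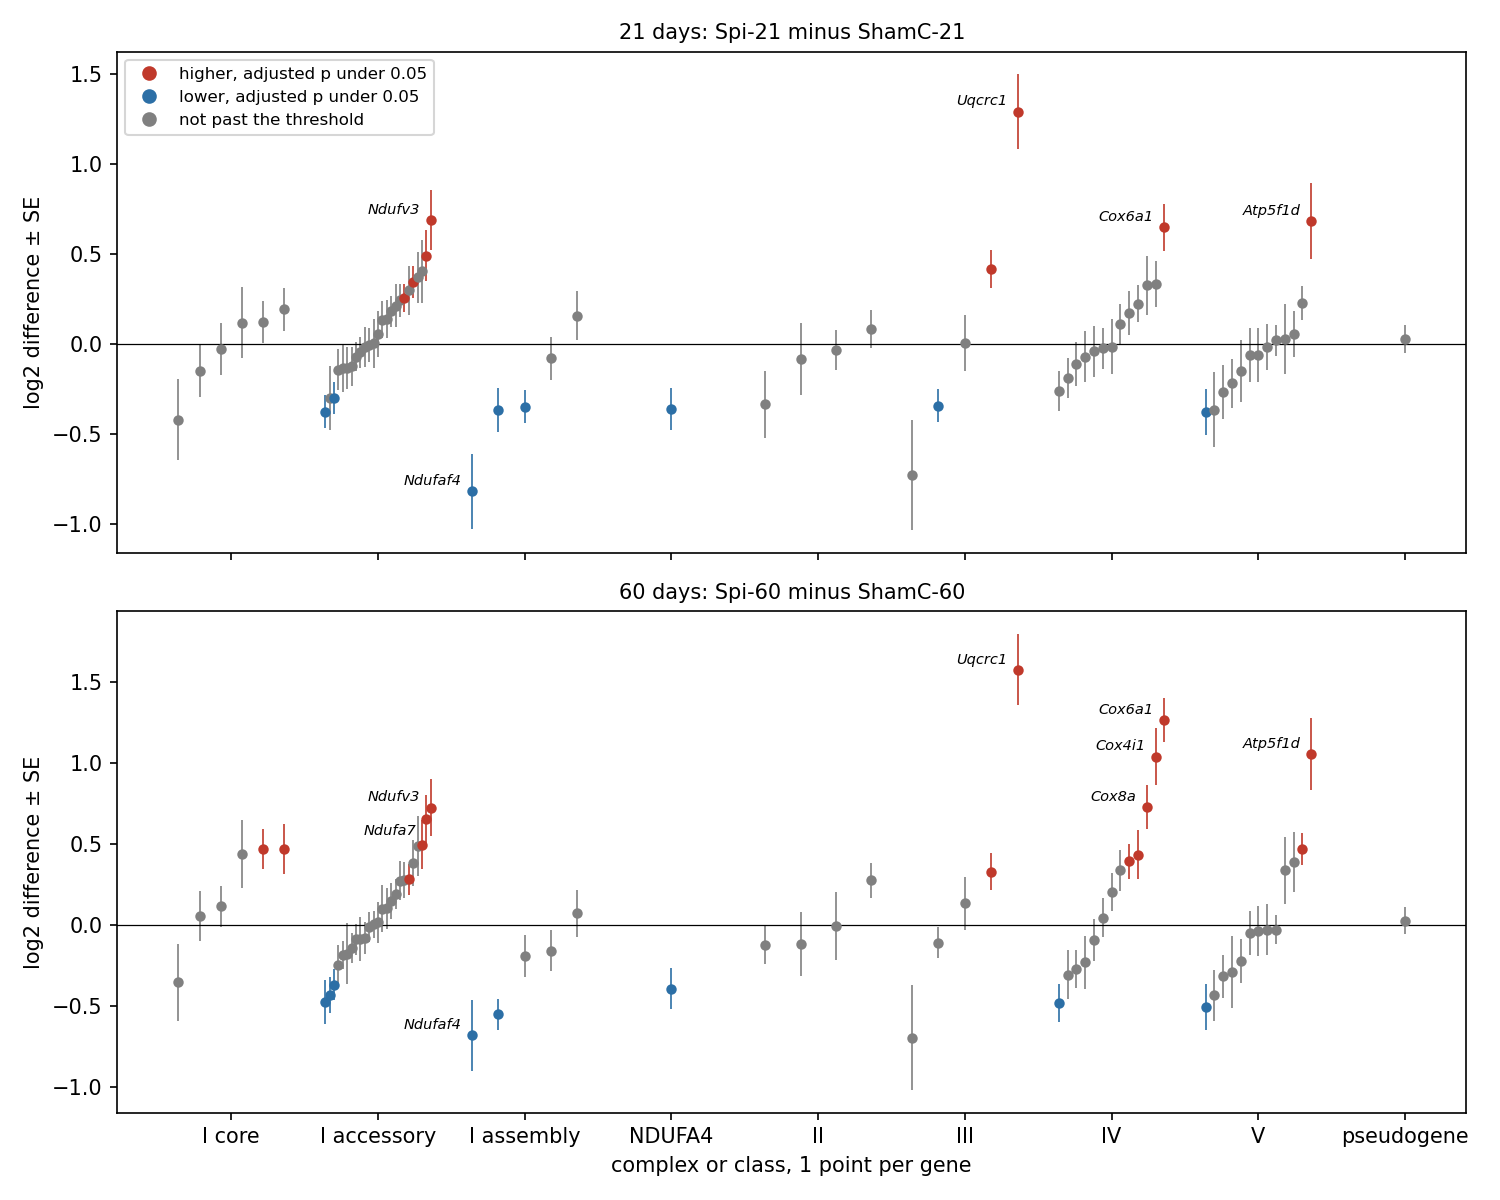
Log2 difference of transected minus sham rats for each gene, with its standard error, at 21 days (upper panel) and 60 days (lower panel), by complex. Coloured points passed an adjusted p under 0.05, and the named points are those among them beyond 0.6 on the log2 scale, led by Uqcrc1 at 1.29 and 1.57.

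In complex I, the NADH dehydrogenase that feeds electrons to ubiquinone, 4 of 31 subunits were higher and 2 lower at 21 days, and 6 were higher and 3 lower at 60 days, with a median log2 difference of 0.05 at 21 days and 0.10 at 60 days. These were 12.9% and 6.45% at 21 days, and 19.4% and 9.68% at 60 days. The shares of all probe sets were 11.3% and 11.2% at 21 days, and 10.2% and 8.92% at 60 days. None of the 6 core subunits passed at 21 days, in limma or at an unadjusted p under 0.05. At 60 days 2 did: Ndufs7, which holds the last iron-sulphur centre before ubiquinone, was higher by 0.47 ± 0.154 (SE, adjusted p = 0.0328, limma), and Ndufv1, the subunit that binds NADH and flavin, by 0.47 ± 0.125 (adjusted p = 0.0101). The Ndufv1 call was lost without ShamC-60 arrays 1 and 4 (0.40, adjusted p = 0.115) and with the GAPDH covariate (0.35, adjusted p = 0.113). Every Spi-60 array lay above every ShamC-60 array for Ndufs7, but its call was lost when any of 5 single arrays was left out. Without ShamC-60 arrays 1 and 4 Ndufs7 differed by 0.32 (adjusted p = 0.321), and with the GAPDH covariate by 0.24 (adjusted p = 0.35). Ndufs1, the largest core subunit, differed by -0.42 ± 0.225 at 21 days (adjusted p = 0.175) and -0.35 ± 0.237 at 60 days (adjusted p = 0.302). The 21-day difference of Ndufs1 was -0.96 (adjusted p = 0.0014) with Spi-21 arrays 1 to 4 alone and 0.12 (adjusted p = 0.699) with Spi-21 arrays 5 to 8 alone.

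Among the accessory subunits, which surround the core without carrying electrons, Ndufv3 and Ndufb7 gave the largest differences among those that passed on both days. Ndufv3, a small subunit beside the NADH-binding site, had a log2 signal of 9.49 to 10.33 (median 9.91) in the 8 Spi-21 arrays, against 9.05 to 9.41 (median 9.14) in the 6 ShamC-21 arrays. At 60 days it had 9.38 to 10.53 (median 9.71) in the 8 Spi-60 arrays, against 8.65, 9.29, 9.43, 8.49 and 9.44 in ShamC-60 arrays 1 to 5. The groups were separate at 21 days and overlapped slightly at 60 days, where ShamC-60 arrays 1 and 4 were the lowest. Ndufv3 was higher by 0.69 ± 0.168 at 21 days (adjusted p = 0.0049) and 0.72 ± 0.177 at 60 days (adjusted p = 0.00573), and without ShamC-60 arrays 1 and 4 the 60-day difference was 0.40 (adjusted p = 0.207). A second, dimmer Ndufv3 probe set was higher by 0.44 (adjusted p = 0.00762) and 0.52 (adjusted p = 0.00356).

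Ndufb7, an accessory subunit of the membrane arm, had 10.66 to 11.35 (median 11.11) in Spi-21 arrays, against 10.41 to 10.69 (median 10.47) in ShamC-21 arrays. It had 10.47 to 11.54 (median 10.89) in Spi-60 arrays, against 10.50, 10.46, 10.45, 10.08 and 10.76 in ShamC-60 arrays 1 to 5. The groups overlapped on both days. The differences were 0.49 ± 0.144 (adjusted p = 0.0158) and 0.49 ± 0.152 (adjusted p = 0.0232), and the 60-day call was lost without ShamC-60 array 4 (0.40, adjusted p = 0.0964).

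Of the other accessory subunits, Ndufb2 of the membrane arm was higher at both days, by 0.35 ± 0.0898 (adjusted p = 0.00762) and 0.28 ± 0.0947 (adjusted p = 0.0379), the second of which was lost without any of 6 single arrays. Ndufs6, which holds zinc in the matrix arm, was higher at 21 days (0.25 ± 0.0782, adjusted p = 0.0212) and differed by 0.00 at 60 days. Ndufa7, of the matrix arm, was higher at 60 days (0.65 ± 0.147, adjusted p = 0.00298) with separate groups, though its second probe set differed by 0.13 (adjusted p = 0.662) and without ShamC-60 arrays 1 and 4 the call was lost (0.42, adjusted p = 0.116). Lower were Ndufb5 of the membrane arm at both days (-0.38 ± 0.0916, adjusted p = 0.00494, and -0.37 ± 0.0967, adjusted p = 0.00852), with no overlap of the groups on either day. Its 21-day call was lost with Spi-21 arrays 5 to 8 alone (-0.20, adjusted p = 0.14). Its 60-day call was lost without ShamC-60 arrays 1 and 4 (-0.38, adjusted p = 0.0532). The GAPDH covariate also removed the 60-day call (-0.22, adjusted p = 0.138). Ndufa6 was lower at 21 days (-0.30 ± 0.0876, adjusted p = 0.0161), and Ndufa2 (-0.48 ± 0.138, adjusted p = 0.0167) and Ndufa1 (-0.44 ± 0.112, adjusted p = 0.00807) were lower at 60 days. The Ndufa1 call was lost without ShamC-60 arrays 1 and 4 (-0.35, adjusted p = 0.128) and with the GAPDH covariate (-0.38, adjusted p = 0.0648). The Ndufa2 call was also lost with the GAPDH covariate (-0.33, adjusted p = 0.168). The remaining 16 accessory subunits lay between -0.30 and 0.40 at 21 days and between -0.25 and 0.48 at 60 days. Signals across the 25 ranged on average over all arrays to 12.43 (Ndufb3) at the top and 6.18 (Ndufb8) at the bottom, on a scale that cannot be compared between probe sets.

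The complex I assembly factors, which build the enzyme and are not part of it, had 3 of 5 members lower at 21 days, 2 of 5 lower at 60 days and 0 higher on either day. Of all probe sets, 11.2% were lower at 21 days and 8.92% at 60 days, and 11.3% and 10.2% were higher. Ndufaf4, which helps to build the ubiquinone module, had 6.93 to 8.09 (median 7.40) in Spi-21 arrays, against 7.94 to 8.94 (median 8.22) in ShamC-21 arrays. It had 6.99 to 7.95 (median 7.67) in Spi-60 arrays, against 8.29, 8.30, 8.33, 9.15 and 7.53 in ShamC-60 arrays 1 to 5. The groups overlapped by few arrays, of which ShamC-60 array 5 lay among the transected values. It was lower by 0.82 on the log2 scale at 21 days (-0.82 ± 0.207, adjusted p = 0.00635) and by 0.68 at 60 days (-0.68 ± 0.219, adjusted p = 0.0287), and without ShamC-60 array 4 the second was -0.47 (adjusted p = 0.143). With the GAPDH covariate the 60-day difference was -0.36 (adjusted p = 0.314).

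Ndufaf5, which modifies the core subunit Ndufs7, was separate on both days. It had 8.20 to 8.77 (median 8.57) in Spi-21 arrays, against 8.81 to 8.98 (median 8.87) in ShamC-21 arrays. At 60 days it had 8.05 to 8.44 (median 8.32) in Spi-60 arrays, against 8.67, 8.91, 8.83, 8.79 and 9.05 in ShamC-60 arrays 1 to 5. Every transected array was below every sham array of its day, with differences of -0.35 ± 0.0915 (adjusted p = 0.00822) and -0.55 ± 0.0966 (adjusted p = 0.00028). Ndufaf1, a factor of the membrane arm, was lower at 21 days (-0.37 ± 0.123, adjusted p = 0.0317) and differed by -0.20 at 60 days (adjusted p = 0.295). Ndufaf3, which works with Ndufaf4, differed by 0.16 and 0.07, and Ndufaf7, a methyltransferase, by -0.08 and -0.16, none past the threshold. The second Ndufaf7 probe set had the opposite sign (0.10 and 0.13, neither past).

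Ndufa4, first counted with complex I and now known to sit with complex IV, was lower at both days. It had 8.97 to 9.56 (median 9.17) in Spi-21 arrays, against 9.43 to 9.75 (median 9.62) in ShamC-21 arrays. It had 8.77 to 9.44 (median 9.26) in Spi-60 arrays, against 9.57, 9.35, 9.65, 9.97 and 9.41 in ShamC-60 arrays 1 to 5. The groups overlapped at their edges, and the differences of -0.36 ± 0.118 (adjusted p = 0.0285) and -0.39 ± 0.124 (adjusted p = 0.0262) were lost without any of 6 single arrays at 21 days and any of 5 at 60 days. Ndufa4l2 was not measured by the rule.

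In complex II, succinate dehydrogenase, 0 of 4 subunits passed on either day in limma, and at an unadjusted p under 0.05 there were 0 at 21 days and 1 at 60 days. Of all probe sets, 11.3% were higher and 11.2% lower at 21 days in limma, and 10.2% and 8.92% at 60 days. Sdha, the flavoprotein, differed by -0.03 ± 0.112 at 21 days and -0.12 ± 0.118 at 60 days (adjusted p = 0.868 and 0.486). Sdhb, the iron-sulphur subunit, differed by -0.08 ± 0.200 and -0.01 ± 0.211 (adjusted p = 0.797 and 0.983). Sdhc, a membrane anchor, differed by 0.08 ± 0.104 and 0.27 ± 0.110 (adjusted p = 0.599 and 0.0811). Sdhd, the other anchor, differed by -0.34 ± 0.187 and -0.12 ± 0.198 (adjusted p = 0.195 and 0.704), and its second probe set had the opposite sign (0.24 and 0.23, neither past). For the brighter Sdhd probe set the 21-day difference was -0.74 (adjusted p = 0.00366) with Spi-21 arrays 1 to 4 alone. It was 0.07 (adjusted p = 0.844) with Spi-21 arrays 5 to 8 alone.

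Complex III, which hands electrons to cytochrome c, held the largest rise of all 73 genes, that of Uqcrc1. Uqcrc1, core protein 1, had a log2 signal of 11.25 to 11.75 (median 11.64) in Spi-21 arrays, against 9.77 to 10.59 (median 10.36) in ShamC-21 arrays. It had 11.53 to 11.89 (median 11.56) in Spi-60 arrays, against 9.72, 10.67, 10.77, 8.68 and 10.53 in ShamC-60 arrays 1 to 5. All 16 transected arrays lay above all 11 sham arrays. The difference was 1.29 ± 0.208 at 21 days (2.45-fold, adjusted p = 0.000141) and 1.57 ± 0.220 at 60 days (2.97-fold, adjusted p = 2.17e-05). ShamC-60 arrays 1 and 4 were the lowest of their group, and without them the 60-day difference was 0.99 (adjusted p = 6.69e-05).

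Uqcrc2, core protein 2, which pairs with Uqcrc1 in the matrix part of the complex, had 8.53 to 11.14 (median 10.36) in Spi-21 arrays, against 10.29 to 10.96 (median 10.72) in ShamC-21 arrays. It had 9.73 to 10.81 (median 10.29) in Spi-60 arrays, against 11.36, 10.52, 10.70, 11.78 and 10.45 in ShamC-60 arrays 1 to 5. The groups overlapped on both days, and ShamC-60 arrays 1 and 4 were the highest here. Its difference of -0.73 ± 0.305 at 21 days (adjusted p = 0.0832) and -0.70 ± 0.322 at 60 days (adjusted p = 0.127) did not pass, while for the mean of both days it was lower (-0.71, adjusted p = 0.0126). The 21-day difference was -1.40 (adjusted p = 0.00113) with Spi-21 arrays 1 to 4 alone and -0.05 (adjusted p = 0.915) with Spi-21 arrays 5 to 8 alone. Without ShamC-60 arrays 1 and 4 the 60-day difference was -0.29 (adjusted p = 0.703).

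Uqcrq, a small subunit of the membrane part, had 11.64 to 12.07 (median 11.71) in Spi-21 arrays, against 11.30 to 11.56 (median 11.33) in ShamC-21 arrays. It had 11.33 to 12.16 (median 11.69) in Spi-60 arrays, against 11.22, 11.39, 11.38, 11.37 and 11.56 in ShamC-60 arrays 1 to 5. The groups were separate at 21 days and overlapped at 60 days. The differences were 0.42 ± 0.108 (adjusted p = 0.00747) and 0.33 ± 0.114 (adjusted p = 0.0433), the second lost without any of 8 single arrays. Uqcrh, the hinge protein between the core and cytochrome c1, was lower at 21 days (-0.34 ± 0.0898, adjusted p = 0.00822) and differed by -0.11 at 60 days (adjusted p = 0.424). Uqcrfs1, the Rieske iron-sulphur protein, differed by 0.00 and 0.13 (adjusted p = 0.988 and 0.607).

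**Figure D3:**
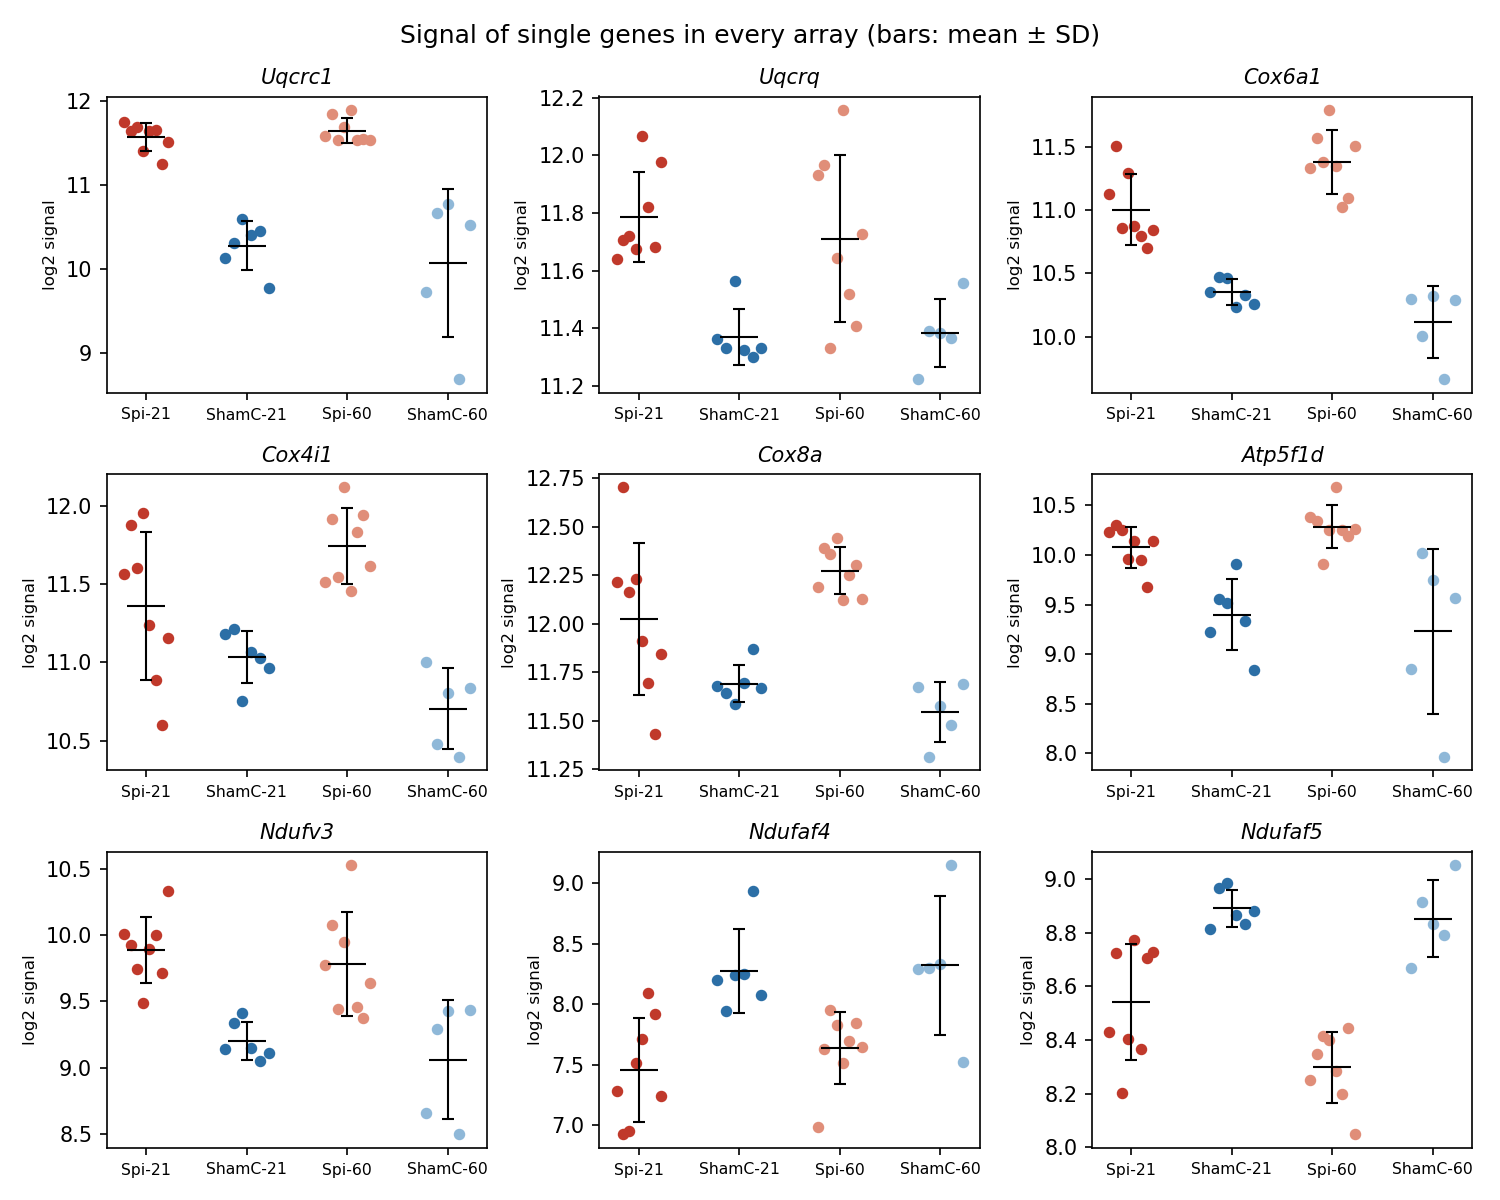
Log2 signal of 9 genes in every array of the 4 groups, with the mean and SD of each group as bars. For Uqcrc1 and Cox6a1 every transected array lies above every sham array of its day, and for Ndufaf5 every transected array lies below.

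In complex IV, cytochrome c oxidase, the 60-day calls were mostly higher: 1 of 13 subunits was higher and 0 lower at 21 days, and 5 were higher and 1 lower at 60 days. These were 7.69% and 0% at 21 days, and 38.5% and 7.69% at 60 days. The shares of all probe sets were 11.3% and 11.2% at 21 days, and 10.2% and 8.92% at 60 days. Cox6a1, the form of subunit 6a in tissues other than heart and muscle, had 10.70 to 11.51 (median 10.87) in Spi-21 arrays, against 10.23 to 10.47 (median 10.34) in ShamC-21 arrays. It had 11.02 to 11.79 (median 11.36) in Spi-60 arrays, against 10.30, 10.01, 10.32, 9.66 and 10.29 in ShamC-60 arrays 1 to 5. The groups were separate on both days, and the difference was 0.65 ± 0.130 at 21 days (1.57-fold, adjusted p = 0.00109) and 1.26 ± 0.137 at 60 days (2.40-fold, adjusted p = 6.9e-07).

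Cox4i1, the largest nuclear subunit and a site of control by ATP, had 10.60 to 11.95 (median 11.40) in Spi-21 arrays, against 10.75 to 11.21 (median 11.05) in ShamC-21 arrays. It had 11.46 to 12.12 (median 11.72) in Spi-60 arrays, against 11.00, 10.48, 10.81, 10.40 and 10.84 in ShamC-60 arrays 1 to 5. The groups overlapped at 21 days and were separate at 60 days. The difference was 0.33 ± 0.166 at 21 days (adjusted p = 0.157) and 1.04 ± 0.176 at 60 days (2.05-fold, adjusted p = 0.000206). With Spi-21 arrays 1 to 4 alone the 21-day difference was 0.71 (adjusted p = 0.000801). With Spi-21 arrays 5 to 8 alone it was -0.06 (adjusted p = 0.822).

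Cox8a, the ubiquitous form of the smallest nuclear subunit, had 11.43 to 12.70 (median 12.04) in Spi-21 arrays, against 11.59 to 11.87 (median 11.67) in ShamC-21 arrays. It had 12.12 to 12.44 (median 12.28) in Spi-60 arrays, against 11.67, 11.31, 11.57, 11.48 and 11.69 in ShamC-60 arrays 1 to 5. As for Cox4i1, the groups overlapped at 21 days and were separate at 60 days, with differences of 0.33 ± 0.128 (adjusted p = 0.0589) and 0.73 ± 0.135 (1.65-fold, adjusted p = 0.000511). The 21-day difference of Cox8a was 0.64 (adjusted p = 0.000173) with Spi-21 arrays 1 to 4 alone. It was 0.03 (adjusted p = 0.884) with Spi-21 arrays 5 to 8 alone. Without ShamC-60 arrays 1 and 4 the 60-day differences were 1.17 for Cox6a1 (adjusted p = 3.9e-05), 1.03 for Cox4i1 (adjusted p = 0.00372) and 0.75 for Cox8a (adjusted p = 0.0069).

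The lower subunit was Cox7c (-0.48 ± 0.118 at 60 days, adjusted p = 0.00549, groups separate), with -0.19 at 21 days (adjusted p = 0.224). Its 60-day call was lost with the GAPDH covariate (-0.35, adjusted p = 0.0807). Cox5b, which binds zinc, differed by 0.17 and 0.33 (adjusted p = 0.313 and 0.0649), Cox6b1, which faces cytochrome c, by 0.11 and 0.20 (adjusted p = 0.507 and 0.233), and Cox6c and Cox7b by -0.04 to -0.31, none past the threshold on a single day. Cox7a1, Cox7a2, Cox7a2l and Cox8c were not measured by the rule.

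The 5 forms known from particular tissues had low signals, from 4.66 (Cox7b2) to 6.88 (Cox6a2) averaged over all arrays, and only Cox6a2 lay above the median probe set of 6.35. Cox6a2, the heart and muscle form of subunit 6a, was higher at 60 days (0.39 ± 0.107, adjusted p = 0.0118), and so was Cox8b, the heart and muscle form of subunit 8 (0.43 ± 0.152, adjusted p = 0.0453). At 21 days they differed by 0.22 (adjusted p = 0.107) and -0.07 (adjusted p = 0.761). Each 60-day call was lost without ShamC-60 array 4 (0.31, adjusted p = 0.062, and 0.44, adjusted p = 0.0812), and that of Cox8b without any of 14 single arrays. The mean of 7 measured muscle markers was 5.26 to 5.84 in Spi-21 and 5.33 to 5.46 in ShamC-21 arrays, and 5.35 to 5.79 in Spi-60 and 5.39 to 5.54 in ShamC-60 arrays. At 60 days 0 of the 7 markers passed, and at 21 days 2 were higher (Myh7, Mb) and 1 lower (Acta1). Of all probe sets, 11.3% were higher and 11.2% lower at 21 days, and 10.2% and 8.92% at 60 days. The part of the muscle markers in the Cox6a2 and Cox8b calls was not tested. Cox4i2, a form induced by low oxygen, differed by -0.02 and 0.04 (adjusted p = 0.902 and 0.835), and Cox6b2, a testis form, by -0.11 and -0.09 (adjusted p = 0.535 and 0.641).

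In complex V, the ATP synthase, 1 of 13 members was higher and 1 lower at 21 days, and 2 were higher and 1 lower at 60 days. These were 7.69% each way at 21 days, and 15.4% and 7.69% at 60 days. Of all probe sets, 11.3% were higher and 11.2% lower at 21 days, and 10.2% and 8.92% at 60 days. Atp5f1d, the delta subunit of the central stalk, had 9.68 to 10.30 (median 10.14) in Spi-21 arrays, against 8.84 to 9.91 (median 9.43) in ShamC-21 arrays. It had 9.91 to 10.68 (median 10.26) in Spi-60 arrays, against 8.85, 10.02, 9.75, 7.96 and 9.57 in ShamC-60 arrays 1 to 5. The groups overlapped on both days by few arrays. The difference was 0.68 ± 0.212 at 21 days (1.61-fold, adjusted p = 0.0221), a call lost without ShamC-21 array 1 or array 6, and 1.05 ± 0.224 at 60 days (2.08-fold, adjusted p = 0.00178). ShamC-60 arrays 1 and 4 were again the lowest, and without them the 60-day difference was 0.50 (adjusted p = 0.0741).

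Atp5mc3, which encodes the c subunit of the proton-driven ring, had 12.52 to 12.96 (median 12.71) in Spi-21 arrays, against 12.27 to 12.65 (median 12.50) in ShamC-21 arrays. It had 12.60 to 13.10 (median 12.82) in Spi-60 arrays, against 12.35, 12.30, 12.42, 12.31 and 12.48 in ShamC-60 arrays 1 to 5. The groups were separate at 60 days only, with differences of 0.23 ± 0.0926 (adjusted p = 0.0739) and 0.47 ± 0.0977 (adjusted p = 0.00148). Atp5pf, coupling factor 6 of the side stalk, was lower at 21 days (-0.38 ± 0.128, adjusted p = 0.033) and differed by -0.32 at 60 days (adjusted p = 0.0945). Atp5mf, a small membrane subunit, was lower at 60 days (-0.51 ± 0.143, adjusted p = 0.014) and differed by -0.22 at 21 days (adjusted p = 0.249). Its 60-day call was lost with the GAPDH covariate (-0.42, adjusted p = 0.11). The catalytic subunits Atp5f1a and Atp5f1b differed by -0.15 and -0.06 at 21 days and by 0.39 and -0.03 at 60 days, and Atp5if1, the inhibitor of the enzyme, by -0.02 and -0.23 (adjusted p = 0.938 and 0.244), none past the threshold. The dimmest probe set was that of Atp5mg (6.98).

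The days could be set side by side because the contrasts at 21 and 60 days share no arrays. The difference had the same sign on both days for 62 of 73 genes (84.9%), with r = 0.858 across genes, which are not independent, against 77.4% and r = 0.775 over all probe sets and 79.7% and r = 0.803 over those above the median signal, where 66 of the 73 genes lay. The difference between the days' effects passed for 0 genes in limma (0% of all probe sets), with 8 of 73 at an unadjusted p under 0.05 against 905 of 12913. Those with the largest such values were Cox4i1 (0.71 ± 0.242, adjusted p = 0.627) and Cox6a1 (0.61 ± 0.189, adjusted p = 0.627). Spi-60 against Spi-21 gave 0 genes (0.0852% of all probe sets), with 20 at an unadjusted p under 0.05, and ShamC-60 against ShamC-21 gave 0 (0% of all probe sets), with 1. Over all 12913 probe sets, 1706 were at an unadjusted p under 0.05 for the first and 513 for the second.

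Counted without a model, 4 genes at 21 days had every transected array above every sham array (5.48%, against 3.07% of all probe sets): Ndufv3, Uqcrc1, Uqcrq and Cox6a1. Below were 3 genes (4.11%, against 2.22%): Ndufa6, Ndufb5 and Ndufaf5. At 60 days 7 were above (9.59%, against 4.78%): Ndufs7, Ndufa7, Uqcrc1, Cox4i1, Cox6a1, Cox8a and Atp5mc3. Below were 4 genes (5.48%, against 3.42%): Ndufa2, Ndufb5, Ndufaf5 and Cox7c. The shares of all probe sets here cover every signal level, while 66 of the 73 genes lay above the median signal.

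The genes varied together in small sets within the groups. With group means removed, the correlation over 27 arrays was above 0 for 1836 of 2628 gene pairs, with a median of 0.169, and above 0.7 for 155 pairs. Ndufs1 and Uqcrc2 gave the highest value (r = 0.942, Spearman's rho 0.939, r = 0.905 without the 2 arrays farthest from the median of Ndufs1), and Uqcrc1 and Atp5f1d the next (r = 0.923, rho 0.844, r = 0.857 without 2 arrays). Cox4i1 and Cox8a gave r = 0.853, while Uqcrc1 and Cox8a gave 0.107. These values are descriptions over arrays that share their processing and differ in RNA quality.

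Part of this variation followed a split inside the Spi-21 group. Spi-21 arrays 1 to 4 and 5 to 8, which differ in the GAPDH control, did not overlap for 12 genes: 3 were higher in arrays 1 to 4 (4.11%, against 4.52% of all probe sets) and 9 were higher in arrays 5 to 8 (12.3%, against 5.24%). Cox4i1 had 11.56 to 11.95 in arrays 1 to 4 and 10.60 to 11.24 in arrays 5 to 8, against 10.75 to 11.21 in ShamC-21 arrays. Cox8a had 12.16 to 12.70 and 11.43 to 11.91, against 11.59 to 11.87 in ShamC-21 arrays. For both, arrays 1 to 4 lay above all sham arrays and arrays 5 to 8 spread around them. Ndufs1 had 7.69 to 9.00 in arrays 1 to 4 and 9.13 to 9.51 in arrays 5 to 8, against 8.97 to 9.56 in ShamC-21 arrays. With arrays 1 to 4 as the only Spi-21 arrays, 10 genes were higher and 16 lower at 21 days, and with arrays 5 to 8 as the only ones 6 were higher and 0 lower. Over all 12913 probe sets, 3903 passed in either direction with arrays 1 to 4 alone and 1335 with arrays 5 to 8 alone. Uqcrc1 did not split this way: it had 11.40 to 11.75 in arrays 1 to 4 and 11.25 to 11.66 in arrays 5 to 8.

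**Figure D4:**
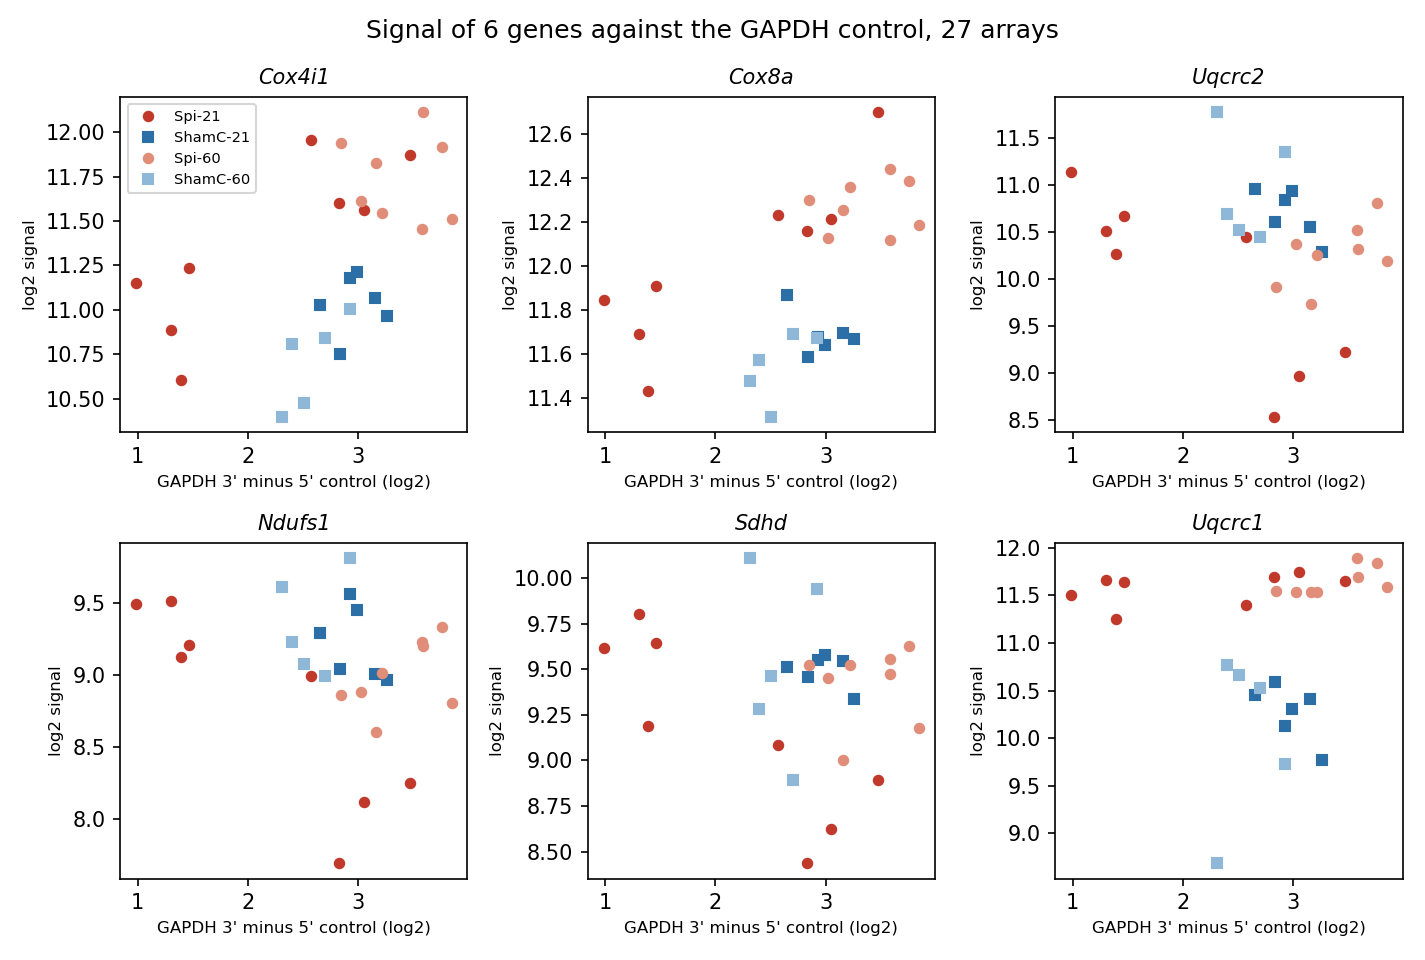
Log2 signal of 6 genes (vertical axes) against the GAPDH 3′ minus 5′ control difference (horizontal axes, log2) in all 27 arrays, coloured by group. The 4 Spi-21 arrays with the lowest control values lie apart from the other 4 for Cox4i1, Cox8a, Ndufs1 and Sdhd, and beside them for Uqcrc1.

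Other genes of the pathway moved in both directions too. Their counts stand beside shares of all probe sets of 11.3% higher and 11.2% lower at 21 days, and 10.2% and 8.92% at 60 days. Of 10 measured genes for electron carriers or ubiquinone synthesis, 1 was higher and 2 lower at 21 days and 0 higher and 2 lower at 60 days. Etfb was the higher gene, and the lower ones were Etfa with Coq2 at 21 days and Etfa with Coq3 at 60 days. The Coq genes of this list serve ubiquinone synthesis. Etfa and Etfb, the subunits of the flavoprotein that brings electrons from fat breakdown, went apart at 21 days (-0.52, adjusted p = 0.0228, and 0.64, adjusted p = 0.00132). Of 22 assembly factors outside the rule, 2 were higher and 2 lower at 21 days and 2 higher and 3 lower at 60 days. Cox18, which helps to insert a mitochondrially encoded subunit of complex IV, was higher on both days (0.35 and 0.33, adjusted p = 0.00949 and 0.0206), and Surf1, a complex IV assembly factor, was lower at 60 days (-0.48, adjusted p = 0.0126).

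Of 13 measured regulators of mitochondrial biogenesis, 2 were higher and 4 lower at 21 days and 2 higher and 2 lower at 60 days, with medians of -0.33 and -0.29. The medians of all probe sets were 0.01 and 0.02. For this and the next 2 lists, the shares of all probe sets were 11.3% higher and 11.2% lower at 21 days. At 60 days they were 10.2% and 8.92%. Esrra, a nuclear receptor for respiratory genes, was higher on both days (0.69, adjusted p = 0.000239, and 0.85, adjusted p = 3.8e-05), as was Polg, the mitochondrial DNA polymerase (0.34, adjusted p = 0.00288, and 0.32, adjusted p = 0.00604). Ssbp1, which binds single-stranded mitochondrial DNA, was lower on both days (-0.60, adjusted p = 0.0169, and -1.14, adjusted p = 0.000154), and Tfam, which packs mitochondrial DNA, at 21 days (-0.61, adjusted p = 0.0441). Nrf1, which encodes the factor NRF1, differed by -0.33 and -0.40 (adjusted p = 0.123 and 0.0837). Of 8 carriers and pores, 1 was higher at 21 days and 2 at 60 days, with 0 lower: Slc25a4, an exchanger of ADP and ATP, at both (0.52, adjusted p = 0.0221, and 0.51, adjusted p = 0.0325) and Ckmt1, mitochondrial creatine kinase, at 60 days (1.00, adjusted p = 0.000822). Of 15 import and folding genes, 0 were higher and 3 lower at 21 days, and 4 were higher and 3 lower at 60 days, with the chaperone Hspa9 lower on both (-0.46, adjusted p = 0.0139, and -0.47, adjusted p = 0.0182).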

How the data were processed

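Expression was measured on 27 Affymetrix rat arrays. The authors deposited log2 signals per probe set, made by RMA per the submitters' processing notes, with background correction, normalization between arrays and summary of probes as that method does. The version of RMA is not given in the sources used here, nor is the probe set filter. Array medians lay between 6.31 and 6.41. Arrays carry no read depth, so the number of arrays limits the precision. Of 12919 probe sets, 6 beta-actin and GAPDH control sets were left out of the tests. Genes were named from the platform annotation supplied with the series.

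The remaining 12913 probe sets were fitted with limma 3.58.1 in R 4.3.3 (lmFit and eBayes, 4 group means over all arrays), without blocks. Contrasts were Spi-21 minus ShamC-21, Spi-60 minus ShamC-60, their mean, their difference, and each later group minus its earlier one. The Benjamini-Hochberg adjustment covered all probe sets of a contrast, with a threshold of 0.05. A fold is 2 raised to the log2 difference. Error values after ± are standard errors of the fit unless marked SD. The fit was tested on simulated data. Figures were drawn with matplotlib 3.10.9.

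The genes and gene lists were chosen with earlier results of these data known. Named genes are, in each class, up to 4 per direction with the largest differences past the threshold on each day, all complex II subunits, the complex IV isoforms, Ndufa4, Ndufa4l2, Atp5if1, and the brightest and dimmest genes of a complex. Values per array are given for those past on both days, up to 3 per complex, and Ndufaf5, Uqcrc2, Cox4i1, Cox8a and Atp5mc3 were added after their values were seen, as were pathway genes named from the lists. Alternatives tried were a replicate block, single and grouped arrays left out, array weights, glial, GAPDH and beta-actin covariates, fits of the compared groups only, a signal filter, median centring, gene means over probe sets, trended robust eBayes, and subunits alone.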

Additional observations from a re-analysis of the deposited data

Results flagged for a closer look

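In Ndufaf4, array 5 of ShamC-21 stood above its group at a log2 signal of 8.94, and array 1 of Spi-60 stood below its group at 6.99. In Uqcrq, array 3 of ShamC-21 stood above its group at 11.6. Each lay farther from the nearest array of its group than the 95% limit of Dixon's test allows. Chance flags about 1 in 20 groups, and over all 73 genes in 4 groups 15 of 292 pairs of gene and group had such an array, of which 4 were in ShamC-21 array 2, 3 in ShamC-21 array 3 and 3 in ShamC-60 array 4.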

How the results depend on the processing

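Of 5834 values of single genes at 21 or 60 days recomputed under other settings, 5392 kept their direction and side of the threshold, 159 lost the call, 98 gained one and 185 changed sign. The sign changes fell on 51 pairs of gene and day, of which 0 were called, and 0 were past the threshold after the change. Of 39 calls at 21 or 60 days, 26 were kept without any single array, and 3 (Uqcrc1 on both days, Cox6a1 at 60 days) were kept in every other alternative run, beta-actin included. Leaving out single arrays gave 5 to 9 genes lower at 21 days (5 without Spi-21 array 3 or ShamC-21 array 1) and 9 to 18 higher at 60 days (9 without ShamC-60 array 4). It gave 0 to 2 for Spi-60 minus Spi-21 (2 without Spi-21 array 4). Array weights gave 14 higher at 21 days. The beta-actin covariate gave 1 higher and 0 lower at 21 days, 2 and 0 at 60 days, and 2 and 0 for the mean of both days. The GAPDH covariate gave 13 lower at 21 days and 1 lower at 60 days. Without Spi-21 arrays 5 to 8, 16 were lower at 21 days. Without Spi-21 arrays 1 to 4, 0 were lower at 21 days, 3 passed for the difference between the days and 8 for Spi-60 minus Spi-21. Without ShamC-60 arrays 1 and 4, 5 were higher and 4 lower at 60 days. Calls over all probe sets also moved under the grouped-array, GAPDH and beta-actin settings, as given above. Subunits alone gave 5 lower at 21 days, since fewer genes were counted. The cause of the other changes was not tested.

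Replicate numbers do not pair the samples: correlations of same-numbered deviations ran from -0.309 to 0.331, above 0.1 in 2 of 6, 2 of 5, 2 of 8 and 1 of 5 pairs. With a replicate block 10 genes were higher and 6 lower at 21 days, 16 and 9 at 60 days, 18 and 15 for the mean, and 0 for the other contrasts. Fits of the compared groups alone were not run for the mean and the difference between days, which need all 4 groups. The number of arrays, 5 in ShamC-60, limits what could be detected.

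The values that changed sign follow, as log2 differences of transected minus sham. With the GAPDH covariate, the 21-day values were -0.044 (Ndufs3), 0.21 (Ndufs7), 0.12 (Ndufa3), -0.14 (Ndufb6), -0.15 (Uqcrfs1), 0.017 (Cox4i2), -0.22 (Atp5pb) and -0.077 (Atp5po). Its 60-day values were 0.030 (Ndufs1), 0.066 (Ndufa13), 0.033 (Sdha), 0.015 (Sdhb), 0.18 (Sdhd), 0.061 (Atp5f1b), 0.046 (Atp5f1c) and 0.064 (Atp5po). With array weights, the 21-day values were 0.0016 (Ndufa13), 0.0046 (Ndufb4), 0.0015 (Sdha), 0.024 (Sdhb), 0.029 (Cox7b2), 0.026 (Atp5f1b) and 0.045 (Atp5if1). Their 60-day values were 0.023 (Sdha), 0.012 (Sdhb), 0.056 (Sdhd), -0.010 (Cox6c-ps1) and 0.14 (Atp5f1c). With the beta-actin covariate, the 21-day values were 0.014 (Ndufa3), -0.13 (Ndufa5), 0.067 (Ndufa13), -0.35 (Ndufb6), -0.058 (Ndufaf3), -0.063 (Uqcrfs1), 0.24 (Cox8b), -0.17 (Atp5pb), -0.042 (Atp5pd) and -0.085 (Atp5po). Its 60-day values were -0.0021 (Ndufv2), 0.11 (Ndufa13), -0.028 (Ndufb6), -0.19 (Ndufc2) and -0.17 (Ndufaf3). With the glial marker covariate, the 21-day values were 0.014 (Ndufa3), -0.044 (Uqcrfs1), 0.048 (Cox7b2) and 0.047 (Atp5if1). Its 60-day value was 0.022 (Ndufa13). With the mean of all probe sets per gene, the 21-day value was 0.0092 (Ndufaf7). Its 60-day value was 0.054 (Sdhd). With the replicate block, the 21-day values were 0.074 (Ndufs7), 0.031 (Ndufa3), -0.036 (Ndufb6), 0.047 (Cox7b2), -0.042 (Atp5pb) and -0.0079 (Atp5po). Its 60-day values were -0.0048 (Ndufs6), 0.048 (Sdhb) and 0.011 (Atp5pd). By second probe set, the 21-day values were -0.039 (Ndufa7), 0.098 (Ndufaf7) and 0.24 (Sdhd). Their 60-day values were 0.13 (Ndufaf7) and 0.23 (Sdhd). Without ShamC-60 arrays 1 and 4, the 60-day values were -0.018 (Ndufs6), 0.058 (Sdha), 0.087 (Sdhb), 0.20 (Sdhd), -0.018 (Cox6c-ps1), 0.031 (Atp5f1b) and 0.17 (Atp5f1c). Without Spi-21 arrays 1 to 4, the 21-day values were 0.12 (Ndufs1), 0.057 (Ndufv2), 0.037 (Ndufa2), 0.045 (Ndufa12), 0.078 (Ndufa13), 0.13 (Ndufb4), 0.0073 (Ndufc2), 0.054 (Ndufaf7), 0.19 (Sdha), 0.032 (Sdhb), 0.067 (Sdhd) and -0.064 (Cox4i1). The rest there were -0.036 (Cox5b), -0.070 (Cox6b1), 0.13 (Cox7b2), 0.089 (Cox8b), 0.13 (Atp5f1b), 0.057 (Atp5f1c) and 0.12 (Atp5if1). Without Spi-21 arrays 5 to 8, the 21-day values were -0.15 (Ndufs3), 0.20 (Ndufs7), 0.14 (Ndufa3), -0.029 (Ndufab1), -0.19 (Ndufb6), -0.031 (Ndufb11), -0.0061 (Sdhc), -0.21 (Uqcrfs1), 0.040 (Cox4i2), -0.32 (Atp5pb) and -0.11 (Atp5po). Without single arrays, 21-day values ran over -0.078 to 0.076 (Ndufs7), -0.068 to 0.021 (Ndufa3), -0.086 to 0.021 (Ndufa13), -0.049 to 0.025 (Ndufb4), -0.064 to 0.10 (Ndufb6), -0.079 to 0.025 (Sdha), -0.16 to 0.025 (Sdhb), -0.057 to 0.11 (Uqcrfs1), -0.084 to 0.012 (Cox4i2), -0.11 to 0.055 (Cox7b2), -0.14 to 0.045 (Cox8b) and -0.12 to 0.026 (Atp5f1b). Without single arrays, other 21-day values ran over -0.12 to 0.013 (Atp5f1c), -0.078 to 0.074 (Atp5if1), -0.083 to 0.20 (Atp5pb), -0.0093 to 0.15 (Atp5pd) and -0.022 to 0.054 (Atp5po). Without single arrays, 60-day values ran over -0.000060 to 0.15 (Ndufv2), -0.044 to 0.0095 (Ndufa13), -0.049 to 0.089 (Ndufc2), -0.018 to 0.034 (Ndufs6), -0.025 to 0.23 (Ndufaf3), -0.095 to 0.10 (Sdhb), -0.28 to 0.022 (Sdhd), -0.021 to 0.099 (Cox4i2), -0.011 to 0.057 (Cox6c-ps1), -0.082 to 0.046 (Atp5f1b), -0.12 to 0.077 (Atp5f1c) and -0.079 to 0.0021 (Atp5po).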
